A study of Homo sapiens with 16 samples.

Results

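Replication-dependent histone genes supply the core histones H2A, H2B, H3 and H4 and the linker histone H1 that package newly made DNA. They were taken as the genes whose symbols in the count files are those of the replication-dependent H1, H2A, H2B, H3 and H4 families (H1-1 to H1-6, H2AC, H2BC, H3C and H4C genes), without symbols that end in P, which mark pseudogenes. This gave 69 of the 62714 genes in the files, of which 6 code for H1, 17 for H2A, 18 for H2B, 13 for H3 and 15 for H4. In GENCODE release 44, all 69 were protein-coding, 55 lay on chromosome 6, 11 in the cluster at 1q21 and 2 in the cluster at 1q42 of chromosome 1, and 1 (H4C16) on chromosome 12.

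The study asked how CREBBP, a histone acetyltransferase often mutated in follicular lymphoma, bears on the response of B lymphocytes to the cytokine IL4. Total RNA of 4 established human lines derived from B-cell lymphomas was sequenced as 16 libraries. Cells of every line had received the lentiviral vector pLENTI-CRISPRv.2 with Cas9 and guides, against CREBBP or against the control locus AAVS, and were kept as edited pools rather than clones. Every pool, control pools included, therefore carried the vector, and gave 1 library without IL4 (baseline) and 1 library after 4 h with IL4 at 10 ng/ml. The AAVS and the CREBBP pools were thus each seen at baseline and with IL4, in 4 groups of 4 libraries, with 1 library per line and the line as the replicate. The first line was SU-DHL4 and the fourth DOHH2. Which of the remaining lines was OCI-LY7 and which SU-DHL10 is given in opposite ways by sample titles and by the cell line field, and they are called line 2 and line 3 here.

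Transcription of these genes is bound to S phase. It takes place in nuclear histone locus bodies, where NPAT acts as a coactivator at histone promoters, and OCT1 (POU2F1) binds an octamer in H2B promoters. Most of their messages do not get a poly(A) tail. They end in a short stem-loop that is bound by SLBP, the stem-loop binding protein, and are cut behind it by a complex that contains the U7 small nuclear RNP, with LSM10 and LSM11 as its particular subunits, so that they are captured in ribosomal RNA depleted libraries such as these but mostly lost where poly(A) is selected. Replacement variants such as H2AZ1 and H3-3B are made outside S phase too and have ordinary messages.

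The stem-loop is shown first, since the symbol rule did not use it and all members share it. The histone stem-loop consensus was found within 150 bases after the stop codon in 69 of 69 members and in 73 of 19924 protein-coding genes (0.366%), and the 4 that were not members were H2AX, H3-4, H3-7 and BTBD10. There were 10 different stem-loops among the members, and 40 members shared the commonest, which is in the first line below. The stem-loop of 16 bases is in capitals, with 5 bases on either side, read 5′ to 3′ on the strand of the gene (GRCh38).
H3C2, chr6:26031592-26031617, minus strand: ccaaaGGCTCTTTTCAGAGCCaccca
H2BC12, chr6:27146361-27146386, minus strand: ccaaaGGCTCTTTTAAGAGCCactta
H4C16, chr12:14770719-14770744, minus strand: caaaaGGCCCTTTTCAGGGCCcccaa
H4C7, chr6:26246611-26246636, minus strand: ttaatGGCCCTTTTCAGGGCCgcgta
H3C2 was the most abundant H3 gene per length, H4C16 stands alone on chromosome 12, and H4C7 was at or next to 0 in these lines, so members with and without transcripts carried the element alike.

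Promoters from RefSeq (GRCh38.p14, 250 bases before to 50 bases after the start) matched 64 of the 69 members. H2AC12, H3C11, H3C12, H4C1 and H4C3 had no entry. On both strands, the octamer ATTTGCAT was in the promoters of 14 of 18 H2B (77.8%) and 11 of 16 H2A genes (68.8%), in 1 of 11 H3 genes (9.09%) and in no H1 or H4 gene, against 2.19% of 27305 genes. The H3 gene was H3C4, through a listed start that is also that of H2AC7. The 150 bases before its other start held no octamer. Windows of neighbouring H2A and H2B genes can overlap, so that 1 octamer counts for both. Of the H2A genes, only H2AC1, H2AC4, H2AC6, H2AC7 and H2AC17 held it in the 150 bases before the start. The CCAAT box was in every H1, H2A, H2B and H3 promoter matched but in 3 of 13 H4 promoters (23.1%), against 39.7% of all genes. TATAAA was in 67.2% of the members and 14% of all genes, and the H1 box AAACACA was in 6 of 6 H1 genes and 6.94% of all genes. Genes with more than 1 listed start counted as holding a motif if any of their windows did. The 150 bases before the start are printed for the pairs H2BC3 and H3C3, and H3C7 and H2BC9, because these genes separated line 2 from the other lines, and for H2BC12 and H1-5, which were abundant in all 4. Capitals mark octamers, CCAAT boxes, TATAAA and H1 boxes in either orientation. TTTATAAA in H3C7 holds TATAAA in both orientations, overlapping.
H2BC3, chr6:26043714-26043863, minus strand: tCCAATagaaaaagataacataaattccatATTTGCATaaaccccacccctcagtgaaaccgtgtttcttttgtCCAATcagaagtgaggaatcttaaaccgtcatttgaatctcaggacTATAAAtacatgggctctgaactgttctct
H3C3, chr6:26045234-26045383, plus strand: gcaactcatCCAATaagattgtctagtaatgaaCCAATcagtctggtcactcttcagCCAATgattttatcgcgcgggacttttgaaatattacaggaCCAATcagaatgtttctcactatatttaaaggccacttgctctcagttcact
H3C7, chr6:26250636-26250785, minus strand: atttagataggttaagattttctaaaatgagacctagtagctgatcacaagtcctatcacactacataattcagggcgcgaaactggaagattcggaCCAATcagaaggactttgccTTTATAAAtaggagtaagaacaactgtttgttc
H2BC9, chr6:26251464-26251613, plus strand: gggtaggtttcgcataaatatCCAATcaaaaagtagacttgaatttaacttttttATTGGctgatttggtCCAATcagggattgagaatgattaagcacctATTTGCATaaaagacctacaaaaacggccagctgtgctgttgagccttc
H2BC12, chr6:27146856-27147005, minus strand: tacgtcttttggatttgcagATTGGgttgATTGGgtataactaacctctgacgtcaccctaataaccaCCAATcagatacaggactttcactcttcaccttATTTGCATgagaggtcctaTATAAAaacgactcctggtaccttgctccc
H1-5, chr6:27867589-27867738, minus strand: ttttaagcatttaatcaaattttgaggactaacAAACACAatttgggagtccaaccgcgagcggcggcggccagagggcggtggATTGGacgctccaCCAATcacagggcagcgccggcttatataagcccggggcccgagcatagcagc
The motifs are matches of letters in a window, and no binding was measured here.

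Total counts per library ranged from 19649735 to 61981976. Levels are given in counts-per-million units (CPM) relative to the total count. B-cell markers were present in every group (8 of 8 reached 1 CPM). CREBBP transcripts do not test the targeting, since edited alleles can still be transcribed. They were at 205 to 360 CPM in the AAVS baseline libraries and at 187 to 278 CPM in the CREBBP baseline libraries (log2 fold change -0.11 ± 0.21, SE, adjusted p = 0.851, edgeR), and with IL4 the difference was -0.51 ± 0.23 (adjusted p = 0.218, edgeR). The AAVS IL4 libraries stood apart, with IGHM, the heavy chain of IgM, at 138 to 1711 CPM against at most 0.0696 CPM in all other libraries, and with 9 of 9 T-cell markers reaching 1 CPM in some library against 4 of 9 in each of the other groups. They enter the IL4 comparison in the AAVS pools, CREBBP against AAVS with IL4, the difference in IL4 response and the test between lines, and the baseline comparison and IL4 in the CREBBP pools do not use them.

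Histone messages were abundant and were carried by many genes at once. Together the 69 members took 0.677% to 3.23% of all counts in a library. A mean above 100 CPM over the 16 libraries was reached by 45 members, while H4C7, H2AC1, H2BC1 and H1-6 stayed under 1 CPM in every library. Per kilobase of annotated exon, H3C2 had the highest mean level at 1331 CPM, followed by H2AC18 at 1159, H2BC12 at 1007, H4C3 at 957 and H3C15 at 874, and the highest H1 gene was H1-5 at 822. Annotated exon covers all isoforms of a gene. It is 1798 bases for H2BC18 and 1878 for H4C14 against 495 for H2BC12, so the order depends on the annotation. H3C2 alone ran from 274 to 1953 CPM over the libraries, and neighbours in this order were not tested against each other. Among the other leading genes of each class were H1-2 and H1-4, H2AC11, H2BC18 and H2BC4, H3C10, and H4C14 and H4C15.

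The shares of the classes were steadier than their levels. H2A genes held 24.9% ± 2.17 of the counts of the members (SD, n = 16 libraries), H2B genes 26.2% ± 4.29, H3 genes 19.6% ± 1.92, H4 genes 18.6% ± 5.08 and H1 genes 10.6% ± 2.25. One library departed from this in H4. In the AAVS IL4 library of line 3, H4 genes held 33.1% of the histone counts, against 14.3% to 24.2% in the other 15 libraries, and H3 genes held 14.3%, the lowest of all.

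Within a class the transcripts are alike, which limits what a single gene can show. The 15 H4 genes have 13 different coding sequences and 2 different proteins, of which 14 genes share one, and the 13 H3 genes have 12 coding sequences and 2 proteins. H2AC18 and H2AC19, H3C14 and H3C15, H4C11 and H4C12, and H4C14 and H4C15 have identical coding sequences, and H3C13 is 97.1% identical to H3C14 and H3C15, so their counts, which RSEM had to divide, are uncertain for each gene alone. Exons of 11 members overlap those of another gene in GENCODE, 6 of them on the same strand.

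The first comparison was between CREBBP and AAVS pools at baseline. Histone messages were at a higher level in the CREBBP pools in the 4 lines, by a factor that differed between lines and was close to 1 in line 2. Summed over the members, the AAVS baseline libraries of lines 1 to 4 held 7089, 12820, 10758 and 7394 CPM. The CREBBP baseline libraries held 16252, 13735, 32288 and 16828 CPM. Each CREBBP library was above each AAVS library, so the groups did not overlap, although line 2 was the highest of the AAVS group and the lowest of the CREBBP group.

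Group means were 9515 ± 2760 CPM for AAVS and 19776 ± 8449 CPM for CREBBP (SD over 4 lines). Within lines the ratio was 2.29, 1.07, 3.001 and 2.28, with a geometric mean of 2.02. An exact sign-flip permutation test over the 4 lines gave p = 0.125 (two-sided), the smallest that 4 lines allow. In bulk RNA, a larger share of cells in S phase and more histone RNA per cell cannot be told apart.

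**Figure D1:**
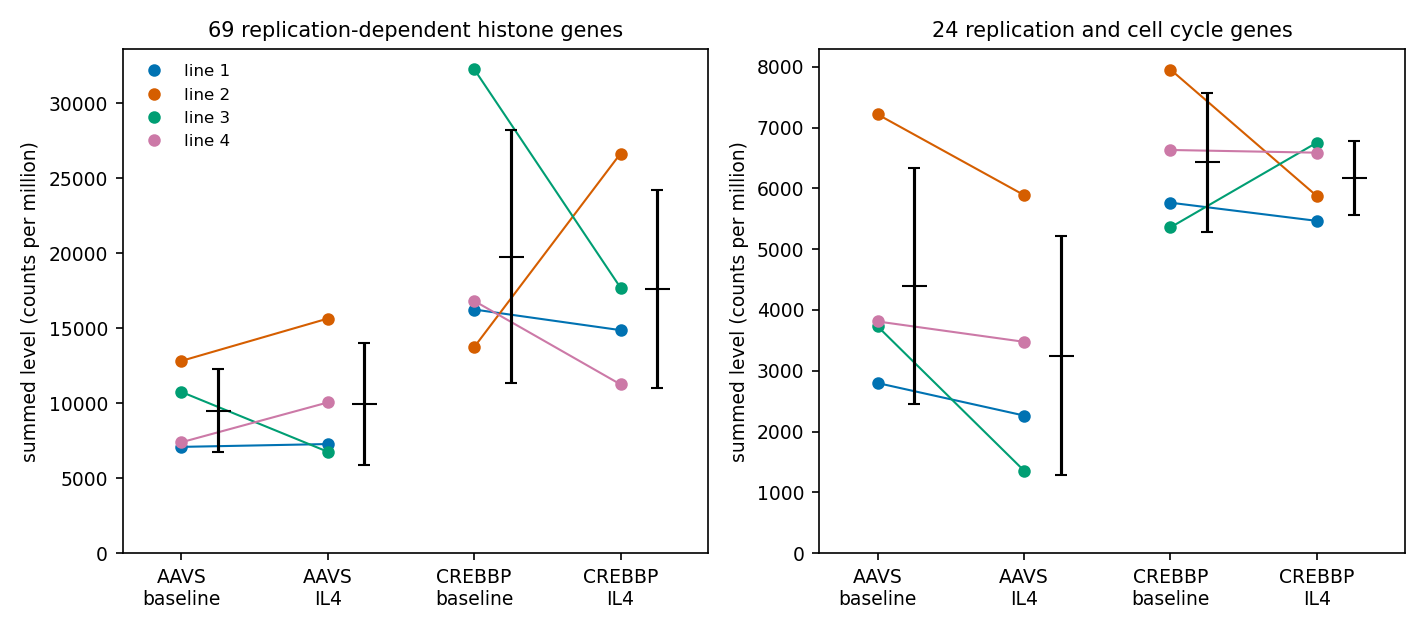
Summed level in counts-per-million (CPM, both axes from 0) of the 69 histone genes (left) and of 24 replication and cell cycle genes (right) in each group. Points are libraries coloured by line, lines join the baseline and IL4 libraries of a pool, and black bars give the mean ± SD of 4 libraries. The 4 CREBBP baseline libraries, at 13735 to 32288 CPM, lie above the 4 AAVS baseline libraries, at 7089 to 12820 CPM.

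Gene by gene, the shift at baseline was general rather than carried by a few members. Of 62 members tested (H2AC1, H2AC25, H2BC1, H2BC26 and H4C7 were low throughout, and H2BC9 and H3C7 were high in line 2 only, so that these 7 did not pass the filter), 61 had a positive fitted log2 fold change for CREBBP over AAVS, and the median was 1.12 against -0.03 over all 18936 genes tested. A positive fold change was found for 47.8% of all genes. No member passed an adjusted p of 0.05 in edgeR's quasi-likelihood test, and neither did any other gene (0.0% of all genes). The smallest adjusted p of a member was 0.150. At an unadjusted p under 0.05 there were 57 members, all higher, where 12.8% of all genes were at that level and 6.34% were at it and higher. DESeq2 called 47 of the 62 members, all higher, against 2.7% of all genes. Higher CPM in 4 of 4 lines was seen for 31 of the 62 members and for 6.04% of all genes. The members share libraries and regulation, so these counts are not independent observations.

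H2AC19, an H2A gene of the 1q21 cluster, had the largest fold change at baseline. It was at 135, 279, 156 and 102 CPM in the AAVS pools of lines 1 to 4 and at 603, 489, 537 and 298 CPM in the CREBBP pools, so that the groups did not overlap. Its log2 fold change was 1.68 ± 0.24 (SE, adjusted p = 0.150, edgeR). Its identical copy H2AC18 was at 281 to 659 CPM in the AAVS pools and at 504 to 994 CPM in the CREBBP pools, with 0.85 ± 0.22 on the log2 scale (adjusted p = 0.224, edgeR), and the division of reads between the pair is uncertain.

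H3C2 is the most abundant H3 gene. It held 366, 418, 664 and 456 CPM in the AAVS pools and 873, 467, 1953 and 736 CPM in the CREBBP pools, with a log2 fold change of 1.02 ± 0.25 (adjusted p = 0.220, edgeR). The CREBBP library of line 3 was the highest and that of line 2 differed little from its control. H2BC12, the H2B gene with the highest level per kilobase of annotated exon, gave 1.11 ± 0.28 (adjusted p = 0.221, edgeR). H4C14, the H4 gene with the highest mean CPM, though not per kilobase of annotated exon, gave 0.998 ± 0.27, and H2AC12 1.34 ± 0.24 (adjusted p = 0.224 and 0.150, edgeR). The estimates next to that of H2AC19 were those of H3C6, an H3 gene under 1 CPM in both groups (1.53 ± 0.97, adjusted p = 0.541, edgeR), and of H2AC15 (1.51 ± 0.36, adjusted p = 0.220, edgeR).

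Among the linker histones, H1-5, the most abundant H1 gene, was at 276, 698, 616 and 389 CPM in the AAVS pools and at 897, 475, 1172 and 1040 CPM in the CREBBP pools, higher in lines 1, 3 and 4 and lower in line 2 (log2 fold change 0.997 ± 0.33, adjusted p = 0.292, edgeR). H1-1, at most 25.9 CPM, was the only tested member with a negative estimate, of -0.17 ± 0.44. The testis-type gene H1-6 was near 0 in all libraries, with 0.15 as its estimate. Class medians of the log2 fold change were 0.95 for H1 (6 tested), 1.19 for H2A (15), 1.18 for H2B (15), 1.03 for H3 (12) and 1.12 for H4 (14), and differences between classes were not tested. The medians of the clusters were 1.16 for 50 chromosome 6 members and 0.97 for 11 members at 1q21.

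The number of members called at baseline changed with line 2, as it did with the filter and with the test used. With all 4 lines, edgeR without a filter on low counts called 55 of 69 members, against 1.63% of all genes. The median difference of the members, on log2(CPM + 0.5), was 1.16 in line 1, 0.03 in line 2, 1.63 in line 3 and 1.11 in line 4, and 60, 33, 61 and 61 of the 62 members were higher in the CREBBP pool. Without line 2, 54 of 61 members tested were called, all higher, against 2.68% of 19206 genes called and 1.59% called and higher. H2AC19 then had a log2 fold change of 1.96 ± 0.23, H2AC15, an H2A gene, 2.03 ± 0.25, and H1-5 1.48 ± 0.23 (adjusted p = 0.00922, 0.00922 and 0.0165, edgeR, 3 lines). The members not called then were H1-1, H1-6, H2AC18, H2BC3, H2BC6, H3C6 and H4C16. With any other line left out and line 2 kept, no member was called.

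**Figure D2:**
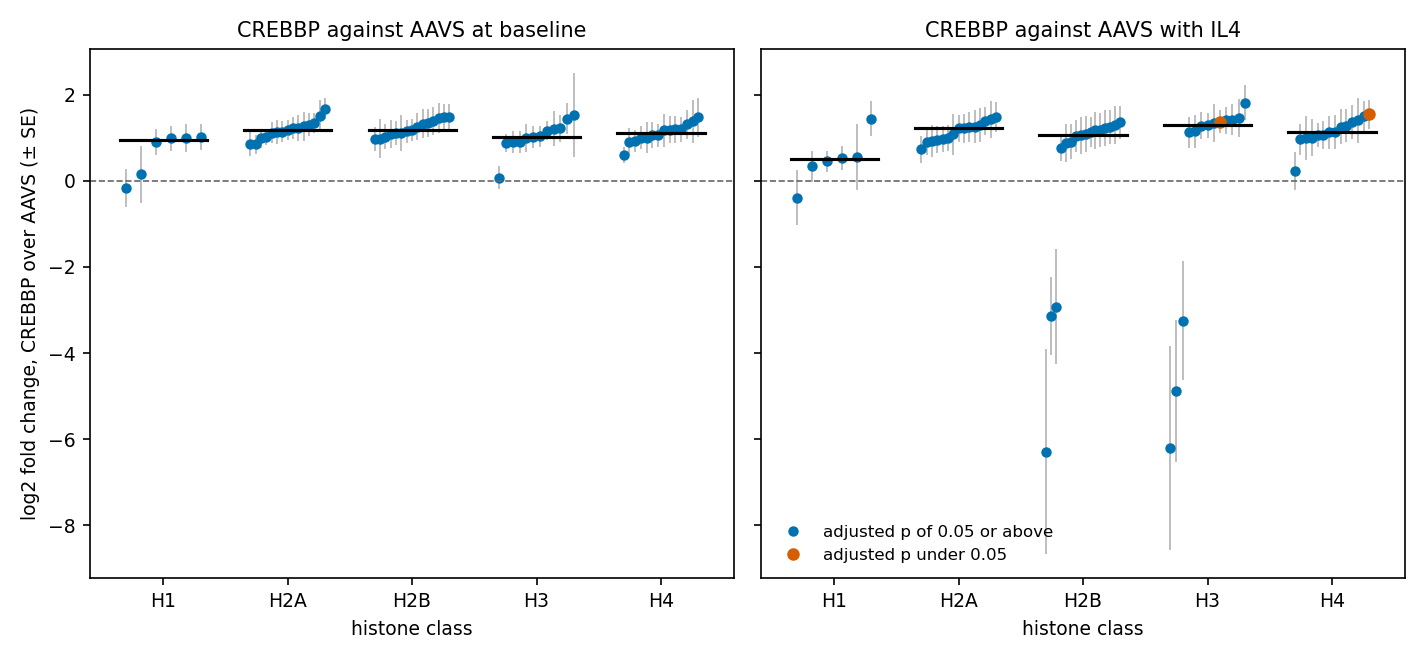
Fitted log2 fold changes of the tested members, CREBBP over AAVS, by histone class at baseline (left, 62 genes) and with IL4 (right, 64 genes). Points are genes in order of their value, grey bars are standard errors, black bars are class medians and orange points have an adjusted p under 0.05 (edgeR). At baseline 61 of 62 points lie above 0, and with IL4 the 2 orange points are H3C1 and H4C1 while 6 H2B and H3 genes lie between -2.92 and -6.29.

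The same comparison with IL4 gave a median of similar size, but with a wider range. Summed levels were 7278, 15645, 6766 and 10051 CPM in the AAVS IL4 libraries of lines 1 to 4 and 14874, 26653, 17707 and 11256 CPM in the CREBBP IL4 libraries. The groups overlapped, because the AAVS library of line 2 was above the CREBBP libraries of lines 1 and 4. Within lines the CREBBP pool was higher by 2.04, 1.70, 2.62 and 1.12 times, with a geometric mean of 1.79 (exact sign-flip permutation test, two-sided, p = 0.125).

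Of 64 members tested with IL4, 57 had a positive log2 fold change, with a median of 1.13 against -0.05 over all 19581 genes, of which 47.8% were positive. The edgeR test called H3C1 and H4C1, where 4.39% of all genes were called. At an unadjusted p under 0.05 there were 52 members, 47 of them higher, against 25.6% of all genes and 10.8% that were also higher. Higher in 4 of 4 lines were 36 members and 6.65% of all genes. DESeq2 called 48 members, 42 higher and 6 lower, but it also called 21.2% of all genes.

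H3C1 and H4C1 are neighbours near the start of the large chromosome 6 cluster, at chr6:26020451-26020958 and chr6:26021649-26022050 on the plus strand. H3C1 rose from 46.6, 46.0, 44.2 and 46.0 CPM in the AAVS IL4 libraries to 93.3, 106, 130 and 71.4 CPM in the CREBBP IL4 libraries (log2 fold change 1.38 ± 0.27, adjusted p = 0.0406, edgeR). The AAVS values were within 3 CPM of each other, and no CREBBP value reached down to them. H4C1 rose from 17.0, 33.1, 30.1 and 21.1 CPM to 57.2, 115, 53.9 and 34.5 CPM (1.55 ± 0.33, adjusted p = 0.0480, edgeR), again without overlap between the groups. Leaving out line 1, 3 or 4 ended both calls, with an adjusted p of 0.155, 0.151 and 0.0787 for H3C1 and of 0.195, 0.132 and 0.0909 for H4C1, and without line 2 both were still called among 13 members, where 12.4% of all genes were called. H4C1 also lost its call with DESeq2 size factors (adjusted p = 0.0502) and without the line in the model (adjusted p = 0.105, edgeR).

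The largest estimates with IL4 were those of H3C8 (1.82 ± 0.40), H4C1 and H4C13 (1.51 ± 0.34), of which H3C8 and H4C13 missed the threshold (adjusted p = 0.0523 and 0.0543, edgeR). H3C2 was at 327, 480, 274 and 460 CPM in the AAVS pools and at 815, 1156, 890.5 and 548 CPM in the CREBBP pools, without overlap (1.42 ± 0.35, adjusted p = 0.0661, edgeR). H1-5 was at 185 to 553 CPM in the AAVS pools against 638 to 1181 CPM (1.45 ± 0.41, adjusted p = 0.0868, edgeR). H4C16, the gene on chromosome 12, had the smallest estimate among the H4 genes in both comparisons, of 0.61 ± 0.18 at baseline and 0.23 with IL4.

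By their fitted values, 7 members were lower in the CREBBP pools with IL4. They were H2BC9, H3C7, H3C3, H3C6, H2BC6, H2BC3 and H1-1, at log2 fold changes from -6.29 to -0.39, and none passed an adjusted p of 0.05 in edgeR. In line 2 the CREBBP library was higher for 6 of them, all but H2BC6, at 399 against 201 CPM for H2BC9, 449.5 against 168 CPM for H3C7, 415 against 216 CPM for H3C3 and 154 against 47.3 CPM for H2BC3, and without the line in the model the estimates of these 4 were positive (1.39, 1.84, 1.29 and 1.96). The first 6 are genes that were detected in the AAVS IL4 libraries and are described with those libraries.

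IL4 itself was not followed by a common shift of the histone genes. In the AAVS pools the summed level with IL4 was 1.03, 1.22, 0.629 and 1.36 times that at baseline in lines 1 to 4, and in the CREBBP pools 0.915, 1.94, 0.548 and 0.669 times. The geometric means were 1.02 (exact sign-flip permutation test, two-sided, p = 0.875) and 0.898 (exact p = 0.75). The lines thus went in different directions in both pools, and line 3 was lower with IL4 in both. In the AAVS pools 30 of 64 tested members had a positive log2 fold change, with a median of -0.03 against 0.01 over all genes. None was called by edgeR against 2.4% of all genes, and 6 were at an unadjusted p under 0.05 against 16%. DESeq2 called 6, against 10.2% of all genes. In the CREBBP pools 15 of 62 were positive and the median was -0.12 against -0.04. None was called by edgeR, none had an unadjusted p under 0.05, and DESeq2 called none, where edgeR called 0.0% and put 2.75% of all genes at that unadjusted level.

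H1-5, H3C2 and H3C1 had the most negative estimates for IL4 in the AAVS pools, of -0.41 ± 0.41, -0.36 ± 0.33 and -0.35 ± 0.31, each lower in 2 of 4 lines. Among members above 100 CPM, H1-3 (0.58 ± 0.28), H2AC19 (0.52 ± 0.34), H1-4 (0.46 ± 0.25) and H1-2 (0.41 ± 0.21) were on the positive side, the latter pair higher in 4 of 4 lines, and none was called (adjusted p from 0.359 to 0.468, edgeR). In the CREBBP pools H3C6, with a mean under 1 CPM, H2BC11 and H2BC15 were at the lower end, with -1.12 ± 0.88, -0.37 ± 0.41 and -0.34 ± 0.30 (adjusted p = 0.924, 0.926 and 0.924, edgeR). H2BC3, H3C3 and H1-6 were at the upper end with 0.76 ± 0.50, 0.64 ± 0.49 and 0.25 ± 0.62.

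The difference in IL4 response between the pools was tested in 1 model of all 16 libraries. Over 65 members the median difference, CREBBP minus AAVS, was -0.01 on the log2 scale against 0.05 over 21932 genes, and 30 members were positive. None was called by edgeR against 0.638% of all genes, and 4 had an unadjusted p under 0.05 against 13.3%. DESeq2 called 4, against 5.01% of all genes. The largest negative differences belonged to H2BC9, H3C6 and H3C3 (-4.80, -4.41 and -4.14) and the largest positive ones to H2BC1 (0.65), H1-5 (0.50 ± 0.53) and H1-6 (0.43), of which H2BC1 and H1-6 were under 1 CPM throughout.

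A few members separated the lines rather than the pools. In 2 pairs of neighbours, 4 genes were transcribed at 28.3 to 449.5 CPM in the 4 libraries of line 2 and were at or next to 0 in the baseline libraries of the other lines. These were H2BC3 and H3C3, 1670 bases apart, and H3C7 and H2BC9, 978 bases apart, all in the large cluster on chromosome 6.

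H2BC9 was at 198, 201, 222 and 399 CPM in line 2, in the order AAVS baseline, AAVS IL4, then CREBBP baseline and with IL4. In lines 1, 3 and 4 it was at most 0.129 CPM outside the AAVS IL4 group. H3C7 was at 133, 168, 191 and 449.5 CPM in line 2 and at most 0.0382 CPM in those other libraries. H3C3 was at 246, 216, 185 and 415 CPM against at most 0.626 CPM, and H2BC3 at 28.3, 47.3, 53.6 and 154 CPM against at most 0.604 CPM. Each of the 4 genes thus separated line 2 from the rest without overlap, whichever pool the RNA came from. The share of all genes that separate line 2 in this way was not counted. In the edgeR test between lines, 40.0% of all genes were called.

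Of the 4 nearest members on either side of the pairs, 3 were transcribed in all 4 lines and H4C7 was not. H2AC4, 9608 bases from H2BC3, was at 17.6 to 142 CPM and H1-2, 9870 bases from H3C3, at 146 to 605 CPM. On the other pair, H4C7, 3145 bases from H3C7, was at 0 in 15 libraries and at 0.0535 CPM in 1, and H3C8, 18842 bases from H2BC9, was at 56.3 to 765 CPM. The promoters printed above hold at least 1 CCAAT box in all 4 genes and an octamer in both H2B genes.

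**Figure D3:**
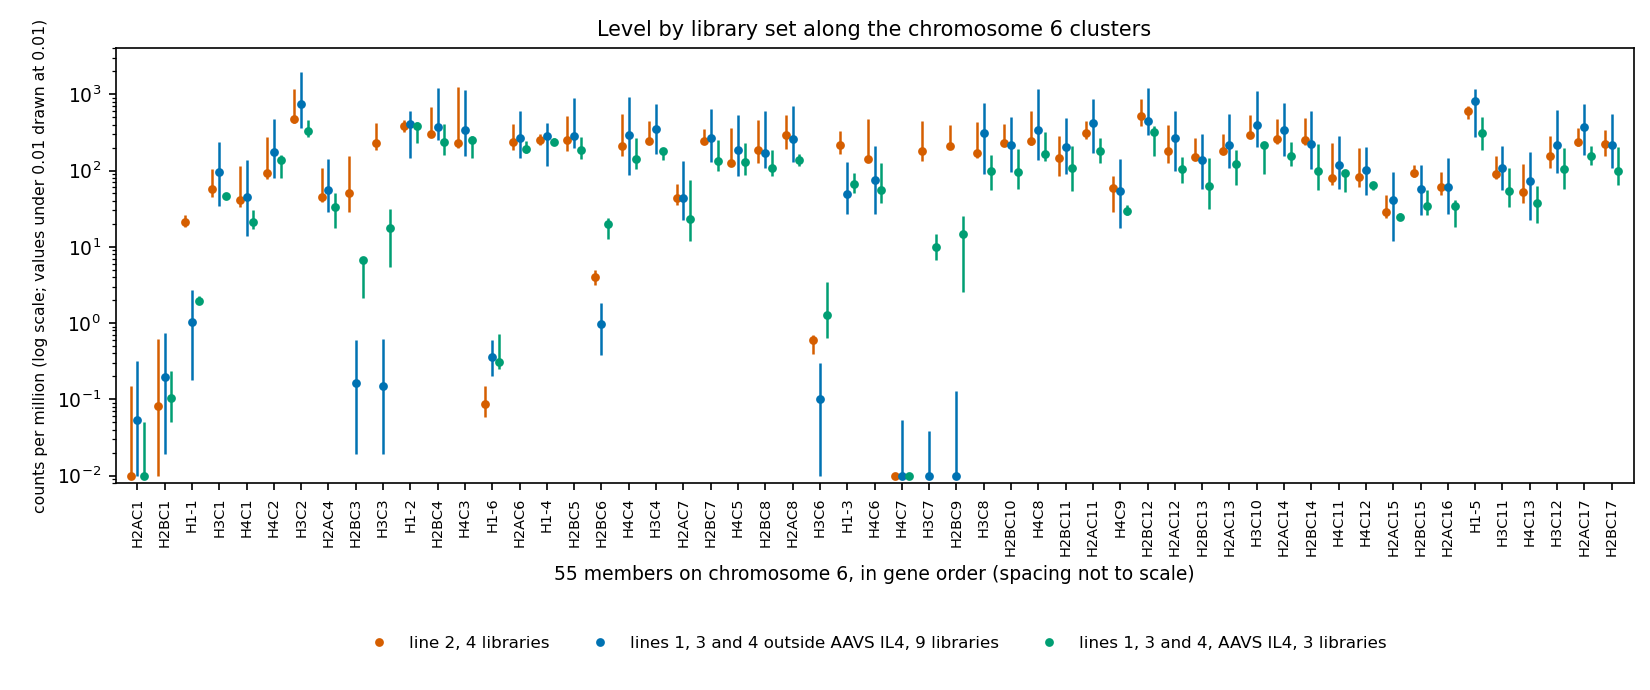
Level of the 55 chromosome 6 members in gene order (counts-per-million, log axis, values under 0.01 drawn at 0.01), where points are medians and bars run from the lowest to the highest library. In line 2 (orange) H2BC3, H3C3, H3C7 and H2BC9 sit at 28.3 to 449.5 CPM, in lines 1, 3 and 4 (blue) they are at or below 0.626 CPM outside AAVS IL4, and the AAVS IL4 libraries of those lines (green) lie between.

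The linker genes H1-1 and H1-3 also had their highest level in line 2. H1-1 was at 18.3 to 25.9 CPM in line 2 and at 0.182 to 2.69 CPM in the other lines, including their AAVS IL4 libraries. H1-3 was at 164 to 325 CPM in line 2 and at 26.9 to 131 CPM elsewhere. Neither range overlapped with line 2, and the share of all genes for which this holds was not counted. H1-3 was higher in AAVS IL4 than in AAVS baseline in lines 1, 3 and 4, at 66.6, 50.4 and 93.5 CPM against 26.9, 40.2 and 43.3 CPM, and was not called there.

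A test of any difference between lines, in all 16 libraries with the group as a term, called 21 of 65 members, where 40.0% of all genes were called. The share is below that of all genes, so the members as a whole did not stand out. The replicates of this test are the libraries of a line, which come from its pools with and without IL4. These libraries are not independent repeats of the line, so the p-values between lines do not cover the spread between such repeats. The smallest adjusted p-values belonged to H3C3 (8.76e-06), H2BC3 (1.64e-05), H2BC9 (1.94e-05), H3C7 (2.39e-05), H1-1 (4.12e-05) and H1-3 (0.000329, all edgeR). All 11 members at 1q21 were among the 21, with 10 of 53 on chromosome 6.

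At 1q21, 10 of 11 members had their highest mean in line 2 and 9 had their lowest in line 4. The share of all genes that were highest or lowest in each line was not counted, here or for chromosome 6. H2BC18, an H2B gene, averaged 336, 1042, 498 and 342 CPM in lines 1 to 4, H4C14 averaged 289, 665, 464 and 180 CPM, H2AC21 87.2, 195, 120 and 93.3 CPM, and H3C14 116, 188, 106 and 44.6 CPM (adjusted p = 0.00602, 0.00209, 0.0155 and 0.00615, edgeR). H2AC19 ran from 185 CPM in line 4 to 533 CPM in line 2. On chromosome 6, 40 of 53 members had their highest mean in line 3 and 11 in line 2, and H4C6, an H4 gene, was one of the latter at 223 CPM against 61.7 to 119 CPM. The order of the lines on chromosome 6 rests on the CREBBP baseline library of line 3. Without it, which was tried after seeing the data, 9 of 53 had their highest mean in line 3 and 30 in line 2, and the summed chromosome 6 level of line 3 went from 13079 to 8882 CPM, below line 2 at 11306 CPM. At 1q21, 10 of 11 were still highest in line 2. In both counts the other lines kept their CREBBP baseline library, so the means cover unlike sets of libraries. With the CREBBP baseline libraries of all lines left out, 42 of 53 chromosome 6 members were highest in line 2, 9 in line 3 and 2 in line 4. All 11 members at 1q21 were then highest in line 2. The share of histone counts from 1q21 was 34.6% ± 3.73 in line 2, 26.7% ± 1.06 in line 1, 23.1% ± 3.07 in line 3 and 19.4% ± 0.456 in line 4 (SD, n = 4 libraries), and the ranges of lines 2 and 4 did not overlap with those of any other line. The libraries of a line are not independent repeats of it, so these SDs and ranges describe the libraries at hand only. The number of copies of these regions in the lines was not measured here.

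In the AAVS IL4 libraries of lines 1, 3 and 4, the genes that were otherwise particular to line 2 were detected. H2BC9 was at 14.5, 25.4 and 2.56 CPM in these 3 libraries, from 372, 500 and 122 counts, against 2, 0 and 0 counts at AAVS baseline, which is at least 413-fold higher in line 3 and at least 44.6-fold higher in line 4 against a floor of 3 counts per library. H3C7 was at 14.8, 10.1 and 6.69 CPM, H3C3 at 17.7, 31.3 and 5.41 CPM and H2BC3 at 6.63, 7.12 and 2.14 CPM. All 4 were detected in all 3 libraries, below their level in line 2.

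H2BC6, an H2B gene of the same cluster, was also detected in AAVS IL4. Outside that group it too was higher in line 2, at 3.12 to 4.398 CPM, than in the other lines, at most at 1.81 CPM, but far below the 4 genes. It was at 20.1, 5.01, 23.7 and 12.7 CPM in the AAVS IL4 libraries of lines 1 to 4 and at 0.382 to 4.398 CPM in the other 12. Every AAVS IL4 value was above every other value of any line. The increase over AAVS baseline was 38.9-, 1.39-, 29.6- and 33.3-fold. H3C6, H2BC26 and H2AC25 showed traces of the same, at up to 3.46, 7.02 and 2.39 CPM in AAVS IL4 and at most 0.696, 0.149 and 0.173 CPM in the other groups.

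None of these was called over all lines, with log2 fold changes of 4.05 ± 0.93 for H2BC6, 3.99 ± 0.97 for H2BC3, 4.97 ± 1.46 for H3C3, 5.91 ± 1.78 for H3C7 and 6.01 ± 1.94 for H2BC9 (adjusted p = 0.0957, 0.109, 0.180, 0.192 and 0.217, edgeR). Where libraries are at 0 these estimates depend on the prior count. Without line 2, edgeR called these 5 genes and no other member, against 4.93% of all genes. The genes are described because of this pattern. H2BC9, H3C7, H3C3 and H2BC3 had 0 to 27 counts at AAVS baseline in the other lines. Without line 2 they were open to the test only through the AAVS IL4 libraries. These calls are therefore no support for the pattern.

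Some markers of other cells were also higher in the AAVS IL4 libraries than at AAVS baseline, and others were not. IGHM was at 951, 711, 1711 and 138 CPM and CD44, an adhesion receptor of lymphocytes, at 455, 67.5, 941 and 158 CPM in the AAVS IL4 libraries of lines 1 to 4, and both were at or next to 0 in the other 12. Of 9 T-cell markers all reached 1 CPM in this group, with sums of 105 to 166 CPM against 101 to 198 CPM in the other groups, where CD2 was at 0 in all and CD3D and CD7 were at 0 in both CREBBP groups. NK-cell markers summed to 2.98 to 16.8 CPM in AAVS IL4 against at most 0.907 CPM elsewhere, and 3 of 4 reached 1 CPM against 0 of 4. Of 5 plasma cell markers 5 reached 1 CPM, summing to 334 to 1865 CPM, against 3 of 5 and 118 to 1040 CPM, and 4 of 8 myeloid markers did, against 2 or 3 of 8. By fitted value, 8 of 9 T-cell markers were higher with IL4 in the AAVS pools, while 3 of 5 myeloid markers tested were lower. FCN1, a myeloid marker, and LCK, a T-cell marker, were lower in all 4 lines. In line 2, H2BC9, H3C7, H3C3 and H2BC3 were at 1.02, 1.27, 0.878 and 1.67 times their AAVS baseline. The part of the marked cells in the histone values was not tested.

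Genes that belong to the same pathway were measured beside the members. Of 24 replication and cell cycle genes (MCM2 to MCM7, PCNA and others), 24 of 24 had a positive log2 fold change for CREBBP over AAVS at baseline, with a median of 0.94 and none called, and 24 of 24 with IL4, with a median of 1.52 and 9 called, all higher. Their summed level in the CREBBP baseline libraries was 2.06, 1.10, 1.44 and 1.74 times that of the AAVS libraries in lines 1 to 4, so that line 2 was the lowest here as well. With IL4 the ratios were 2.41, 0.997, 4.98 and 1.89. The largest of these, in line 3, was with an AAVS IL4 library at 1357 CPM, the lowest of all 16. The part of the share of cells in S phase in the histone values was not tested.

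Factors that make or bind histone messages were taken next, and their difference from the members was not tested. Of 22 tested (of 23 listed, since RNU7-1 had no count), 17 had a positive estimate at baseline with a median of 0.31 and none called, and 19 with IL4 with a median of 0.62 and 1 called, SNRPD3, an Sm protein (0.99 ± 0.22, adjusted p = 0.0489, edgeR). CCNE1 is on this list and on the replication list. SLBP was at 85.4, 177, 94.4 and 80.1 CPM in the AAVS baseline libraries and at 134, 179, 128 and 127 CPM in the CREBBP baseline libraries (0.54 ± 0.19, adjusted p = 0.320, edgeR). With IL4 it gave 1.01 ± 0.29 (adjusted p = 0.0871, edgeR). NPAT, the coactivator, was at -0.03 ± 0.19 and -0.40 ± 0.30. CASP8AP2, a protein of the histone locus body, gave 0.28 ± 0.19 and 0.59 ± 0.22, LSM10 0.32 and 0.16, LSM11 0.41 and 0.98, ZNF473, a protein of 3′ end processing, -0.05 and 0.21, and HINFP, an activator of H4 genes, -0.0022 and -0.13, at baseline and with IL4, none of them called.

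Replacement variants were measured as well, and their difference from the members was not tested. Summed over 11 genes, CREBBP over AAVS was 1.25, 1.05, 1.12 and 1.39 at baseline and 1.41, 1.14, 1.52 and 1.47 with IL4. H2AZ1, the H2A.Z gene, was higher in the CREBBP than in the AAVS pools with IL4 (log2 fold change 1.46 ± 0.26, adjusted p = 0.0331, edgeR). It was the only one of the 11 called in that comparison, which uses the AAVS IL4 libraries. H3-3B, one of the genes for H3.3, was at 225 to 672 CPM in the AAVS and at 263 to 502 CPM in the CREBBP baseline libraries, and H3-3A and H2AX had baseline estimates of 0.35 and 0.62, not called. Histone chaperones (16 genes) had medians of 0.34 at baseline with none called and of 1.02 with IL4 with 2 called.

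Known to make polyadenylated messages as well are 6 members (H1-2, H2BC21, H2BC12, H2BC5, H2BC4 and H2AC6). Their median at baseline was 1.07, next to 1.12 for all members tested, and summed they were at 1.85, 1.23, 3.14 and 2.14 times the AAVS level in lines 1 to 4.

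Other RNAs without a poly(A) tail were highest in the 2 libraries in which the members were highest. RN7SK, RN7SL1, RN7SL2, RMRP and RPPH1 together took 49282 to 197182 CPM. The 2 highest libraries for them, CREBBP IL4 of line 2 at 197182 CPM and CREBBP baseline of line 3 at 146256 CPM, were also the 2 with the highest histone level, at 26653 and 32288 CPM. The next highest for them went the other way. It was AAVS IL4 of line 3 at 112402 CPM, which had the lowest histone level of all 16 libraries, at 6766 CPM. Their ratio of CREBBP to AAVS was 1.26, 1.199, 2.16 and 0.753 at baseline and 1.07, 2.64, 0.514 and 0.631 with IL4 in lines 1 to 4, beside histone ratios of 2.29, 1.07, 3.001 and 2.28 and of 2.04, 1.70, 2.62 and 1.12. The part of the capture of such RNAs in the histone values was not tested.

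**Figure D4:**
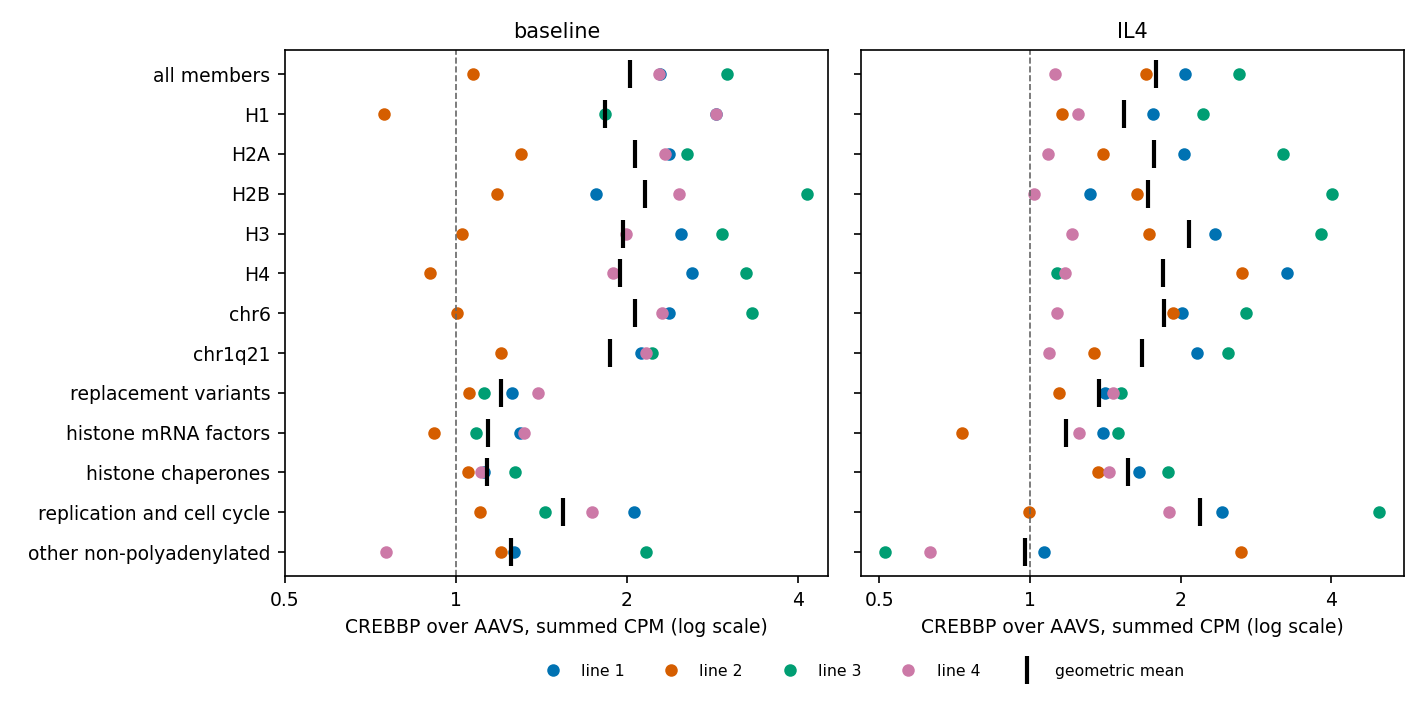
Ratio of summed CPM, CREBBP over AAVS, at baseline (left) and with IL4 (right) for the members, their classes and clusters and 5 other gene lists (log axis). Points are lines and black marks are geometric means, with a dashed line at 1. For the members the geometric means are 2.02 and 1.79, and for replacement variants 1.199 and 1.38.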

How the data were processed

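The cell lines were sequenced as paired-end libraries of ribosomal RNA depleted total RNA. Per the submitters' notes, trimming used cutadapt 2.3, alignment to GRCh38 used STAR 2.7.8a, and gene-level estimated counts came from RSEM 1.3.3. The authors deposited these expected counts as whole numbers per gene and library, not normalized. RSEM divides reads between near-identical histone genes, and single copies are uncertain. The labels give 50 ng of RNA as input.

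CPM was computed from total counts. Genes kept by filterByExpr were scaled with TMM factors and tested over all genes with the two-sided quasi-likelihood test of edgeR 4.0.16 (R 4.3.3), with Benjamini-Hochberg adjustment and the line as blocking term. The line pairs the libraries, because same-numbered libraries come from the same cell line. Deviations from the group means had median correlations of 0.409, 0.685, 0.227 and 0.596 within lines 1 to 4. Replicates are different lines, except in the test between lines, where they are the libraries of a line, and no 2 libraries were copies. Differences within lines and counts of lines used log2(CPM + 0.5). Alternatives were DESeq2 1.42.0, its size factors, other filters, no block, each line left out and all 16 libraries in 1 fit. The edgeR and DESeq2 steps were tested on simulated data. Motifs and stem-loops were searched with Biopython 1.88 in GENCODE 44 and RefSeq sequences, and figures were drawn with matplotlib 3.10.9.

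The members and gene lists were chosen with earlier results of these data known. Named were the 3 most abundant genes of each class, in each comparison the 3 largest and 3 smallest estimates and up to 12 called members, the 5 largest ratios between lines, identical copies, and fixed factors and variants. H2AC4, H2AC12, H2AC25, H2BC6, H2BC26, H4C7, H4C16 and SNRPD3, and H1-2, H1-3, H1-4 and H2AC19 under IL4, were named after their values were seen.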

Additional observations from a re-analysis of the deposited data

Results flagged for a closer look

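Values were picked out where the highest or lowest of the 4 libraries of a group lay far from the others, by Dixon's ratio of gap to range, at its 95% critical value, over 48 groups of values. Chance would pick out about 1 in 20 groups if the groups were chosen without regard to their values. That rate does not apply to the single genes. They were included because they were already known to differ between lines, so their being picked out is no further evidence.

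Summed histone levels stood out in 3 cases. CREBBP baseline of line 3 was the highest of its group for all members, at 32288 CPM, and for H4 genes, at 7149 CPM. AAVS baseline of line 2 was the highest of its group for H2B genes, at 3520 CPM.

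All the other values were of line 2, given here in the order AAVS baseline, AAVS IL4, then CREBBP baseline and with IL4. H2BC9 stood out at 198, 201, 222 and 399 CPM and H3C7 at 133, 168, 191 and 449.5 CPM. H3C3 did so at 246, 216, 185 and 415 CPM, H2BC3 at 28.3, 47.3, 53.6 and 154 CPM, and H1-1 at 25.9, 18.97, 18.3 and 22.8 CPM. H1-3 stood out in AAVS baseline at 230.4 CPM and in CREBBP IL4 at 325 CPM. The 4 groups share their lines, so these are not separate observations.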

How the results depend on the processing

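The median log2 fold changes and the mean summed levels moved by less than the spread between lines under every alternative run, while counts of called members did not hold. Shares of all genes called in the same fit stand in brackets. DESeq2 called 6 members for IL4 in AAVS pools (10.2%), 47 at baseline (2.7%), 48 for CREBBP against AAVS with IL4 (21.2%) and 4 for the difference in IL4 response (5.01%). With no filter on low counts, the calls were 6 (4.85%) and 1 (0.117%) for IL4 in the AAVS and CREBBP pools, 55 (1.63%) at baseline, 52 (9.34%) for CREBBP against AAVS with IL4 and 8 (3.0%) for the difference. With all 16 libraries in 1 fit they were 5 (5.79%) for IL4 in AAVS pools and 24 (20%) for CREBBP against AAVS with IL4, and with at least 10 counts in every library 7 (5.02%) for the latter. Leaving out 1 line at a time gave 0 to 5 calls for IL4 in AAVS pools, 0 to 54 at baseline, 0 to 13 for CREBBP against AAVS with IL4 and 0 to 4 for the difference, each highest without line 2 (4.93%, 2.68%, 12.4% and 1.19%). Calls between lines were 9 (23.4%) without the AAVS baseline libraries and 12 (26.3%) without the CREBBP IL4 libraries, against 21 (40.0%). The causes were not tested.

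Without the replicate block, 1 member (2.76%) was called for CREBBP against AAVS with IL4, and the directions of H2BC9 (1.39), H3C7 (1.84), H3C3 (1.29) and H2BC3 (1.96) turned in that comparison, of H2BC9 (1.06), H3C3 (1.54) and H2BC3 (0.88) in the difference in IL4 response, and of H3C3 (-0.30) and NPAT (0.016) at baseline. Leaving out 1 line at a time gave ranges across 0 for H1-1 (-0.64 to 0.30) and NPAT (-0.10 to 0.11) at baseline, H1-5 (-0.70 to 0.0066) for IL4 in AAVS pools, H2BC3 (-0.24 to 1.33) for IL4 in CREBBP pools and H2BC1 (-0.45 to 1.91) in the difference. None of these was called. The 4 lines and the few counts of the genes near 0 limit the precision.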
